A study of Mus musculus with 2 samples.

Results

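The skeletal muscle program described here is a set of 37 genes chosen by name from the 45777 genes of the expression table, and every one of them had reads in both libraries. The set holds the 4 myogenic regulatory factors and their partner Mef2c, the fusion proteins Mymk and Mymx, myosin heavy and light chains, actin and troponins, giant and scaffold proteins of the sarcomere, calcium-handling and membrane proteins, the creatine kinase Ckm, and the receptor and kinase of the neuromuscular junction. The values were measured by RNA-seq of polyA RNA in 1 teratoma library from E14, a mouse ESC line with wild-type Sox2, and 1 teratoma library from E14-Sox2TA/WT cells. The latter are E14 cells edited with CRISPR/Cas9 and selected from single cells, in which 1 Sox2 allele encodes the T258A change and the other allele is wild-type. The cells of both groups were grown under the skin of BALB/c-nu mice, which lack a thymus, and the teratomas were taken 14 days later. Whether a library held 1 tumour or several is not given in the sources used here, and although teratoma is the tissue in the labels, the extraction protocol there names an ESC line as the RNA source. The host is also a mouse, so reads from host muscle and from tumour muscle cannot be told apart.

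Skeletal muscle is built from myoblasts that are committed by Myf5 and Myod1, differentiate under myogenin and Mef2c, and fuse into multinucleated fibres. Newly formed fibres assemble sarcomeres from embryonic and perinatal isoforms of myosin, from cardiac as well as skeletal actin, and from an acetylcholine receptor with a gamma subunit, and these isoforms give way to adult fast or slow forms as fibres mature and are innervated. In teratomas, striated muscle is one of the mesodermal tissues that can form beside neural tissue, cartilage and epithelia.

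The E14 library held 50529171 reads on genes and the E14-Sox2TA/WT library 49030281. Sox2 itself had 14585 and 8623 reads, and the counts do not separate its alleles. Levels are given as TPM, a read count scaled by transcript length and then to a fixed sum per library, with the E14 value first, and FPKM is the same without the fixed sum. Each fold between the libraries carries a 95% Clopper-Pearson interval of the read counts. These intervals cover counting error only and compare 1 library with 1 library, so no difference has a replicate check and no p-value is given. For all genes that reached a TPM of 10 in either library, the median log2 ratio of E14-Sox2TA/WT over E14 was -0.19 on TPM and 0.01 on FPKM or on reads scaled by library total. At the median, ratios on TPM thus sit below those on reads by about that shift, but single genes depart from it. Myf5 had a wider gap, with a ratio of 0.552 on TPM and 0.847 on reads scaled by library total. Eno3 had a gap in the other direction, with 2.24 and 1.67. In a bulk library, fewer muscle cells and less muscle RNA per cell cannot be told apart.

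The muscle genes were mostly lower in the E14-Sox2TA/WT teratoma. Together they summed to 647 TPM in E14 and 341 in E14-Sox2TA/WT, 1.89-fold lower, from 25210 and 13464 reads. By TPM, 31 of the 37 genes were lower and 6 higher, where 13444 of all genes were lower and 15701 higher with no TPM filter. By FPKM, or by reads scaled by library total, median-of-ratios size factors or TMM factors, 30 of the 37 were lower and 7 higher, the difference being the receptor subunit Chrng. The counting interval excluded a ratio of 1 for 28 of the lower and 5 of the higher genes on TPM. On reads scaled by library total it did so for 24 of the lower and 5 of the higher genes. The share of all genes whose interval excluded 1 was not computed, so these counts do not set the muscle genes apart from other genes.

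A differentially expressed gene (DEG) is taken as one whose TPM differed more than 2-fold and reached 10 in either library. Only 14 of the muscle genes reached that TPM. Of these, Myh3, Myh8, Myl1, Myl4, Tnni2, Tnnc2 and Ckm were lower DEGs, or 50% of the 14, where 18.7% of all 11578 genes that reached that TPM were lower DEGs. Mymx alone was a higher DEG, or 7.14% of the 14, beside 10.8% of all genes. The other 6, Myog, Mylpf, Acta1, Tnnt1, Tnnt3 and Tnnc1, were within 2-fold. On reads scaled by library total, the folds of Myl1 (1.99) and Tnnc2 (1.86) were also within 2-fold, which left 5 lower DEGs, or 35.7% of the 14, beside 14.1% of all genes. Myh3, Myh8 and Ckm reached a TPM of 10 only in E14, and Mymx only in E14-Sox2TA/WT. For genes that pass in a single library, here and among all genes, the filter itself favours the direction of the call. Of the 29 muscle genes that reached a TPM of 1 in either library, 25 were lower, or 86.2%, against 52.5% of the 18558 genes at that level. After 1 was added to every TPM, their median log2 ratio was -0.85 with an order-statistic interval of -1.05 to -0.51, and their range was -2.83 to 2.54. That interval treats the genes as independent draws, although they were chosen by name, and it does not cover differences between teratomas. The median of all genes at that level was -0.06, and the middle 50% of them lay between -0.65 and 0.57.

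**Figure D1:**
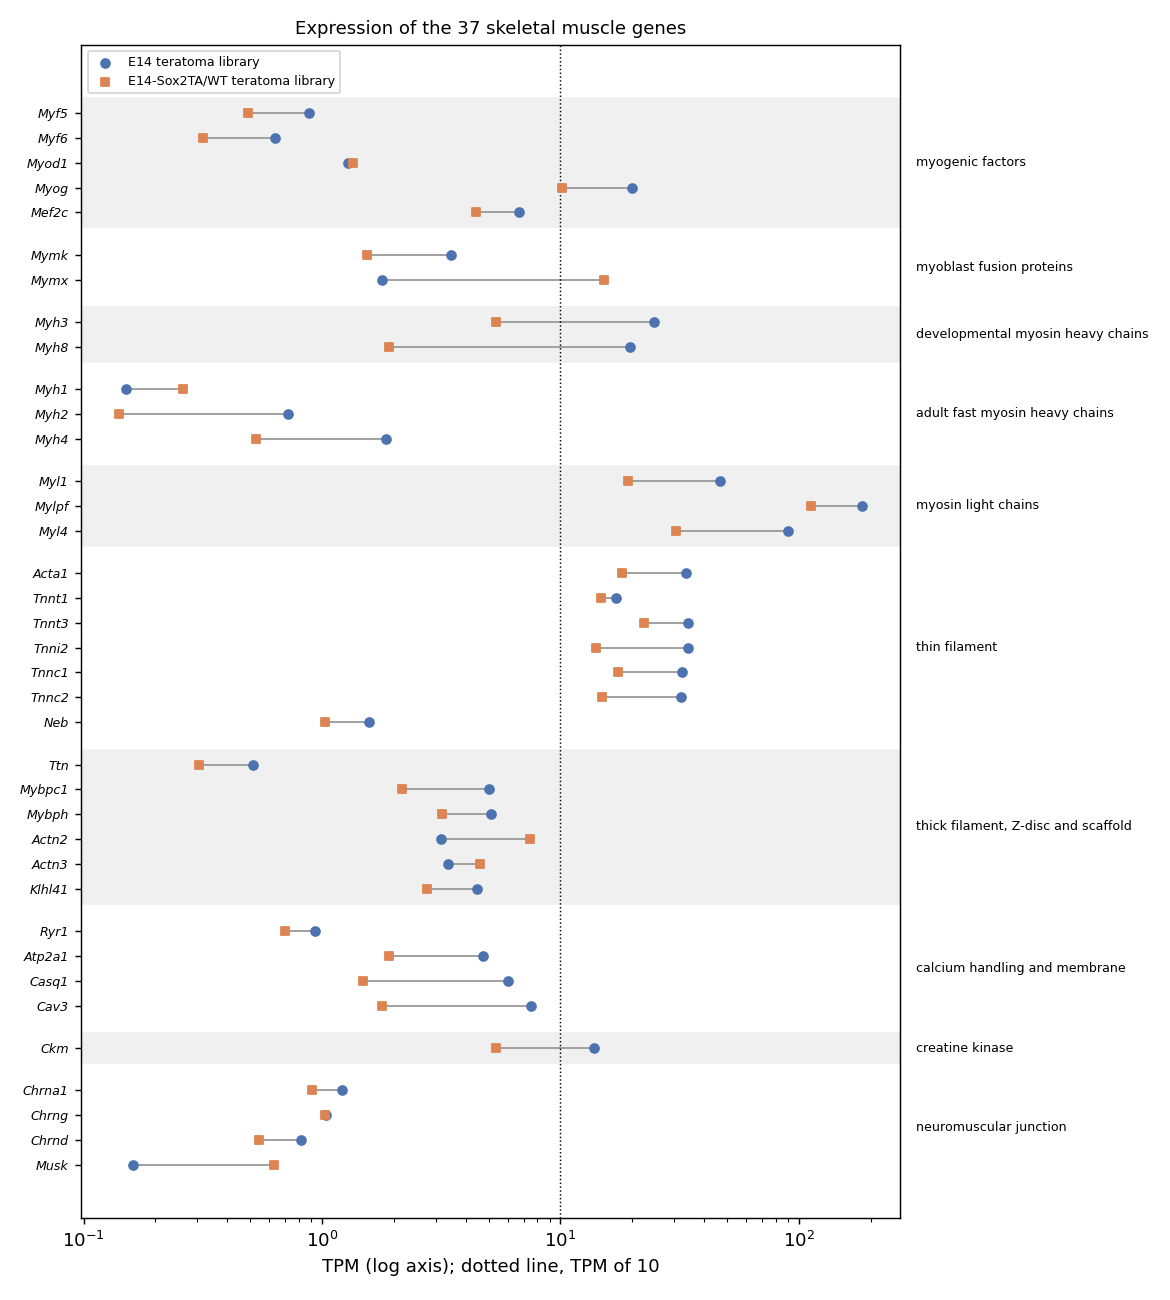
TPM of the 37 muscle genes on a log axis, with circles for E14 and squares for E14-Sox2TA/WT, grouped by role, with 1 library per group. Mylpf was the highest gene in both, at 185 and 112 TPM, and Mymx is the gene that stands furthest to the right in E14-Sox2TA/WT relative to E14.

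The reference promoters of a few of these genes are shown to set beside their values. They are Myh8 and Myh3, the DEGs with the largest lower folds, Mylpf, the gene with the highest TPM, and Acta1 and Klhl41. The promoters of Acta1 and Klhl41 hold different kinds of motif, as does that of Myh4, which is not shown. Each line gives 250 bases before and 50 after the start in RefSeq's GRCm38.p6, 5′ to 3′ on the gene's strand. The windows are chr11:67276874-67277173 on the plus strand for Myh8, chr11:67078050-67078349 on the plus strand for Myh3, chr7:127211358-127211657 on the plus strand for Mylpf, chr8:123894726-123895025 on the minus strand for Acta1 and chr2:69669870-69670169 on the plus strand for Klhl41. Capitals mark matches to the E-box CAGCTG, a sequence that myogenic factors can bind, to the MEF2 motif or to the CArG motif of serum response factor.
Myh8: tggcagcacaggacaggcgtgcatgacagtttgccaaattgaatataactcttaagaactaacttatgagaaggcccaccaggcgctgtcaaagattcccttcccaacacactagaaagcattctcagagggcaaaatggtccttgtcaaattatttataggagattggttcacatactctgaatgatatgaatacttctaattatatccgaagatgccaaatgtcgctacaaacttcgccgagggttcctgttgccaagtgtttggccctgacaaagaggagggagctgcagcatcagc
Myh3: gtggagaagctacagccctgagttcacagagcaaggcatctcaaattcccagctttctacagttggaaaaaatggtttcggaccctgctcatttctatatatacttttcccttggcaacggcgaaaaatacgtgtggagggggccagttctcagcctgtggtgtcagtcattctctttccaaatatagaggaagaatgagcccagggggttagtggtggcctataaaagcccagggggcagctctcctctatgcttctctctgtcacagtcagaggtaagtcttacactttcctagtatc
Mylpf: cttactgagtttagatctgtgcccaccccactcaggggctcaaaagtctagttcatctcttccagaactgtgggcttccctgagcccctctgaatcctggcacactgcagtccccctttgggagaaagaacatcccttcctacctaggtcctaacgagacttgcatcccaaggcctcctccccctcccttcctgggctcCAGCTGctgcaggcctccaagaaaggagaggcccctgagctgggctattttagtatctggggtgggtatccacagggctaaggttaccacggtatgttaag
Acta1: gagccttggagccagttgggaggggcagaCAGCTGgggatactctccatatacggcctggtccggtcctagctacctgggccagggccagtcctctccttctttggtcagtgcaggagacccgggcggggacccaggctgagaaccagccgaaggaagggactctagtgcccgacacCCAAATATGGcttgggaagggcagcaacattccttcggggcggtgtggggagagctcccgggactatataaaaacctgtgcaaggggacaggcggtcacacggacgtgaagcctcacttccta
Klhl41: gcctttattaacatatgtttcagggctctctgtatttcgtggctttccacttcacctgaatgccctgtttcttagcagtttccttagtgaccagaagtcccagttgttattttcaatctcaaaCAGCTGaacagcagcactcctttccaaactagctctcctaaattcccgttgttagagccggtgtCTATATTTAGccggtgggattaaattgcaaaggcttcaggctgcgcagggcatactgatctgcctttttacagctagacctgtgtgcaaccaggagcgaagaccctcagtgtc

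The E-box lies from -51 to -46 relative to the start in Mylpf, from -221 to -216 in Acta1 and from -127 to -122 in Klhl41. The CArG match of Acta1 lies from -73 to -64 and the MEF2 match of Klhl41 from -63 to -54. The RefSeq start used for Mylpf lies inside the interval that the annotation gives the gene. The Myh8 and Myh3 windows held no match to these motifs, which says only that these letters are not in these 300 bases. RefSeq windows were found for 28 of the 37 genes, 30 windows in all, and 14 of these windows (46.7%) held CAGCTG, beside 16.3% of 32851 windows of all genes. All 3 motifs read the same on both strands. The MEF2 motif was in 2 muscle windows, those of Klhl41 and Ttn (6.67%, beside 0.557% of all windows), and the CArG motif in 2, those of Acta1 and Myh4 (6.67%, beside 1.63%). Most genes with an E-box window, such as Ckm, Casq1 and Cav3, were lower in E14-Sox2TA/WT on TPM, as were 31 of all 37 muscle genes. Among the E-box genes, Musk alone was higher on TPM, and the interval of Chrng included 1. A match is a description of the sequence and not a bound site.

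The transcription factors were low in both libraries apart from myogenin. Myf5, which acts at the start of the program, had 45 and 37 reads, or 0.885 and 0.488 TPM. It was 1.81-fold lower on TPM (1.15 to 2.88) but 1.18-fold lower on reads scaled by library total (0.747 to 1.88), so its difference was not detectable on reads. Myod1, the other commitment factor, had 58 and 68 reads, or 1.28 and 1.35 TPM, a ratio whose interval included 1. Myf6, a factor of late differentiation and mature fibres, had 20 and 11 reads, and its 2.0-fold lower TPM had an interval of 0.915 to 4.63. The order of the libraries was thus not resolved for Myod1 and Myf6, and for Myf5 it depended on the scale.

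Myog, which drives differentiation, was the highest of the factors, at 19.9 and 10.2 TPM from 709 and 407 reads. It was 1.94-fold lower in E14-Sox2TA/WT (1.72 to 2.2), just inside the 2-fold limit. Mef2c, which works with the myogenic factors and is also expressed in heart, vessels and neurons, had 6.71 and 4.41 TPM and was 1.52-fold lower (1.39 to 1.67).

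The pair of proteins that fuse myoblasts differed in opposite directions. Mymk, the multipass membrane protein needed for fusion, had 114 and 57 reads, or 3.46 and 1.54 TPM, 2.25-fold lower (1.62 to 3.15). Mymx, the micropeptide that acts with it, had 38 and 347 reads, or 1.79 and 15.3 TPM, 8.53-fold higher (6.09 to 12.3). It was the only muscle gene with a higher call. Mymx lies on chromosome 17 from 45600961 to 45602196 in GRCm38, it shared none of its 50-nt stretches with other GENCODE transcripts, and its exons overlapped no other gene.

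Among the DEGs, the developmental myosin heavy chains had the largest lower folds. Myh8, the perinatal form, had 2905 and 315 reads, or 19.6 and 1.90 TPM, 10.3-fold lower (9.18 to 11.6). Myh3, the embryonic form, had 3603 and 871 reads, or 24.7 and 5.34 TPM, 4.62-fold lower (4.29 to 4.98). Their summed level was thus 44.3 TPM in E14 and 7.25 in E14-Sox2TA/WT, 6.11-fold lower.

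The adult fast chains Myh1, Myh2 and Myh4 lie in the same cluster on chromosome 11 and summed to 2.73 and 0.928 TPM, 2.94-fold lower. Myh4, of the fastest fibres, had 271 and 86 reads, or 1.86 and 0.528 TPM, 3.52-fold lower (2.75 to 4.54). Myh2, of fast oxidative fibres, had 106 and 23 reads, 5.17-fold lower (3.27 to 8.5). Myh1, of intermediate fast fibres, had 22 and 43 reads, 1.72-fold higher with an interval of 1.01 to 3.02. Myh1 and Myh2 were under 1 TPM in both libraries. Reads can be split between these paralogs by the counting: 25.4% of the 50-nt stretches of Myh1 transcripts, 22.9% of Myh2, 18.9% of Myh4, 12.1% of Myh8 and 4.76% of Myh3 also occurred in another gene's transcripts. The values of Myh1, Myh2 and Myh4 are uncertain for that reason.

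Among the 5 heavy chains of the set, embryonic and perinatal forms held most of the reads in both libraries. Myh3 and Myh8 together held 94.2% of the reads of the 5 heavy chains in E14 (93.6% to 94.8%, 6508 of 6907) and 88.6% in E14-Sox2TA/WT (86.8% to 90.3%, 1186 of 1338). The exact binomial intervals of the libraries did not overlap. With Myh7, the slow and cardiac chain, added to the adult genes, the shares were 88.4% and 73.3%. With Myh13, the extraocular chain of the same cluster, added instead after its values were seen, they were 93.9% and 71.4%, since Myh13 had 26 and 324 reads. Within the developmental pair, Myh3 held 55.4% of reads in E14 (54.1% to 56.6%) and 73.4% in E14-Sox2TA/WT (70.8% to 75.9%), so that Myh8 was the lower of the 2 by share in both.

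The light chains carried the largest part of the summed level, 322 and 162 TPM. Mylpf, the fast regulatory light chain, had 3367 and 2301 reads, or 185 and 112 TPM, 1.65-fold lower (1.56 to 1.74). It made up 28.6% of the summed TPM of the muscle genes in E14 and 32.9% in E14-Sox2TA/WT. Myl4, the light chain of embryonic muscle and of the atrium, had 2104 and 779 reads, or 90.1 and 30.4 TPM, 2.96-fold lower (2.73 to 3.22). Myl1, the fast alkali light chain, had 46.7 and 19.2 TPM, 2.43-fold lower (2.18 to 2.72), and 11.7% of its 50-nt stretches were shared with the pseudogene Mylf-ps. Of the reads of Myl4 and Myl1 together, Myl4 held 68.1% in E14 (66.4% to 69.8%) and 61.9% in E14-Sox2TA/WT (59.1% to 64.6%).

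All 7 thin filament genes were lower, and their summed level was 185 and 103 TPM. Acta1, the skeletal alpha-actin, had 1199 and 725 reads, or 33.6 and 18.2 TPM, 1.85-fold lower (1.68 to 2.03). It lies on chromosome 8, whose 925 genes with a TPM of at least 1 had a median log2 ratio of -0.48, and on which 36.0% of the genes tested were lower DEGs. The part of this in the value of Acta1 was not tested. Actc1, the cardiac actin that developing skeletal muscle also uses, had 94.7 and 31.6 TPM, and it held 73.5% of the reads of both actins in E14 (72.2% to 74.8%) and 63.1% in E14-Sox2TA/WT (60.9% to 65.2%).

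The troponins make the thin filament sensitive to calcium, and their fast and slow subunits were all lower on TPM. Tnni2, the fast inhibitory subunit, had 34.2 and 14.1 TPM, 2.42-fold lower (2.1 to 2.81). Tnnc2, the fast calcium-binding subunit, had 32.2 and 15.0 TPM, 2.15-fold lower (1.85 to 2.49), although its exons overlap 592 bases of Ube2c on the other strand and the strand setting of the counting is not given in the sources used here. Tnnt3, the fast tropomyosin-binding subunit, had 34.3 and 22.4 TPM, 1.53-fold lower (1.38 to 1.69). These fast subunits were at similar TPM in E14 and at more spread levels in E14-Sox2TA/WT.

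Each slow form had a smaller fold than its fast counterpart, although the intervals overlapped for troponin C. Tnnt1 had 451 and 425 reads, or 17.1 and 14.8 TPM, 1.15-fold lower on TPM (1.01 to 1.32) and 1.03-fold lower on reads scaled by library total (0.9 to 1.18). Tnnc1, which slow muscle shares with the heart, had 32.3 and 17.4 TPM, 1.86-fold lower (1.62 to 2.13). The slow share of troponin T reads was 33.3% in E14 (30.8% to 35.8%) and 39.2% in E14-Sox2TA/WT (36.3% to 42.1%). With Tnni1, the slow inhibitory subunit, the slow share of troponin I reads was 44.1% (41.1% to 47.2%) and 53.9% (49.8% to 57.9%). For troponin C, the shares of 51.1% (48.1% to 54.1%) and 54.7% (50.7% to 58.7%) had overlapping intervals. The slow form thus held a larger share in E14-Sox2TA/WT for troponin T and I by more than counting error, and not detectably for troponin C.

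**Figure D2:**
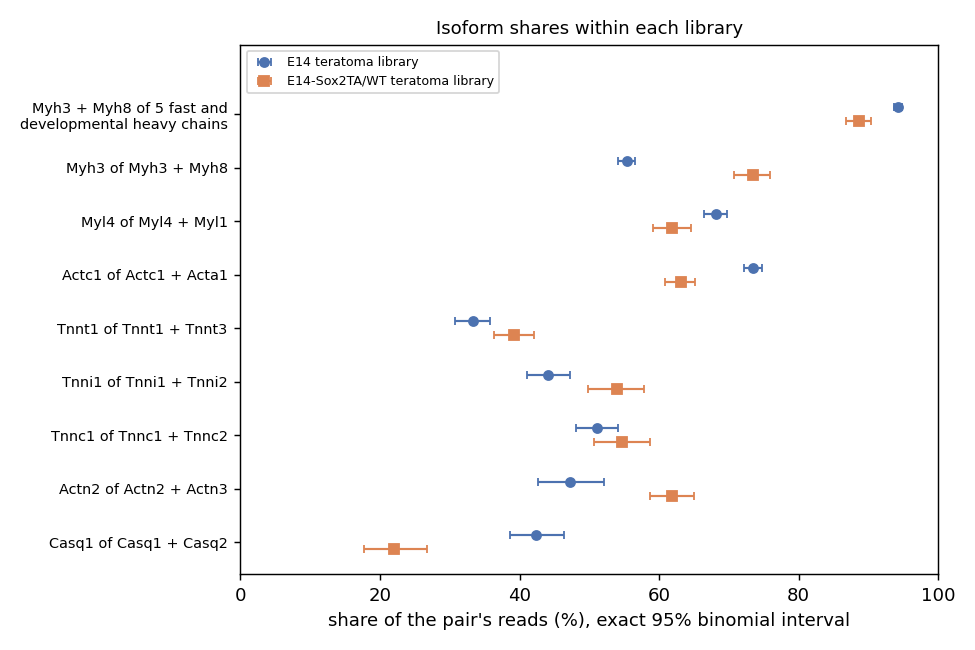
Share of the reads of each isoform group held by the first gene named, in percent, with circles for E14 and squares for E14-Sox2TA/WT, and with exact 95% binomial intervals that cover counting error only. Myh3 held 55.4% of the Myh3 and Myh8 reads in E14 and 73.4% in E14-Sox2TA/WT, and the troponin C shares of the libraries overlap.

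The giant proteins were lower by less than 2-fold. Neb, nebulin, which spans the thin filament, had 878 and 639 reads, or 1.58 and 1.03 TPM, 1.53-fold lower (1.38 to 1.70). Ttn, titin, which runs from the Z-disc to the M-band and is shared with the heart, had 1321 and 877 reads, or 0.512 and 0.304 TPM, 1.68-fold lower (1.54 to 1.83). Long genes were lower in general: the longest of 10 length classes, of 6.87 kb and more, had a median log2 ratio of -0.56 and the shortest, up to 0.882 kb, a median of 0.40. After the median of its length class was taken off, the log2 ratio was 0.01 for Neb and 0.02 for Mef2c, but -2.99 for Myh8 and -1.83 for Myh3.

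The other thick filament, Z-disc and scaffold genes went in both directions, and with Ttn they summed to 21.6 and 20.4 TPM. Mybpc1, the slow myosin-binding protein C, had 5.03 and 2.17 TPM, 2.32-fold lower (1.99 to 2.72). Mybph, a related myosin-binding protein, had 5.11 and 3.17 TPM, 1.61-fold lower (1.31 to 1.99), and its exons overlap 1162 bases of Adora1 on the other strand. Klhl41, a stabiliser of nebulin, had 4.46 and 2.75 TPM, 1.62-fold lower (1.34 to 1.96).

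Both alpha-actinins, the cross-linkers of the Z-disc, were higher in E14-Sox2TA/WT. Actn2, found in all skeletal fibres and in the heart, had 211 and 579 reads, or 3.14 and 7.42 TPM, 2.37-fold higher (2.02 to 2.78). Actn3, of fast fibres, had 235 and 356 reads, or 3.38 and 4.58 TPM, 1.35-fold higher (1.14 to 1.60). Neither reached 10 TPM. Actn2 held 47.3% of the reads of the pair in E14 (42.6% to 52.1%) and 61.9% in E14-Sox2TA/WT (58.7% to 65.0%).

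The 4 genes of calcium handling and membrane were lower, with summed levels of 19.2 and 5.88 TPM, 3.26-fold lower. Casq1, the calcium buffer of the fast sarcoplasmic reticulum, had 272 and 75 reads, or 6.01 and 1.48 TPM, 4.06-fold lower (3.13 to 5.31). Cav3, the caveolin of muscle membranes, had 209 and 56 reads, or 7.51 and 1.79 TPM, 4.20-fold lower (3.11 to 5.74). Atp2a1, the fast calcium pump, had 4.72 and 1.91 TPM, 2.47-fold lower (2.06 to 2.96), and its exons overlap 763 bases of Rabep2 on the other strand. These 3 genes were more than 2-fold lower but under 10 TPM in both libraries, and so were outside the DEG rule.

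Ryr1, the calcium release channel, had 350 and 291 reads, or 0.934 and 0.697 TPM, 1.34-fold lower on TPM (1.14 to 1.57), and 1.17-fold lower on reads scaled by library total (0.996 to 1.37), an interval that includes 1. Ckm, the muscle creatine kinase that buffers ATP, had 470 and 204 reads, or 13.8 and 5.36 TPM, 2.57-fold lower (2.18 to 3.05), with 451 bases of its exons overlapping A930016O22Rik on the other strand. Casq1 held 42.4% of the calsequestrin reads in E14 (38.6% to 46.4%) and 22% in E14-Sox2TA/WT (17.7% to 26.8%), the rest being Casq2, which slow and cardiac muscle also use. Atp2a1 held 2.69% of its reads with the widely expressed pump Atp2a2 in E14 (2.44% to 2.97%) and 1.44% in E14-Sox2TA/WT (1.24% to 1.67%).

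The genes of the neuromuscular junction summed to 3.23 and 3.11 TPM. Chrna1, the alpha subunit of the muscle acetylcholine receptor, had 127 and 105 reads, 1.34-fold lower on TPM (1.03 to 1.76) but 1.17-fold lower on reads scaled by library total (0.899 to 1.53). Chrnd, the delta subunit, had 59 and 44 reads, 1.5-fold lower (0.996 to 2.26), and Chrng, the gamma subunit of the fetal receptor, had 49 and 54 reads at 1.04 and 1.03 TPM. The differences of Chrnd and Chrng could not be told from counting error, nor could that of Chrna1 on reads. Musk, the kinase that gathers receptors at the synapse, had 24 and 112 reads, or 0.161 and 0.631 TPM, 3.92-fold higher (2.50 to 6.37). Chrne, which replaces Chrng in innervated adult fibres, had 13 reads in E14 and 0 in E14-Sox2TA/WT, at least 4.20-fold lower against a floor of 3 reads in that library, although the counting interval of both counts reaches down to 2.96-fold. The fetal subunit therefore held 79.0% of the reads of the pair in E14 (66.8% to 88.3%, 49 of 62) and 100% in E14-Sox2TA/WT (93.4% to 100%, 54 of 54).

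**Figure D3:**
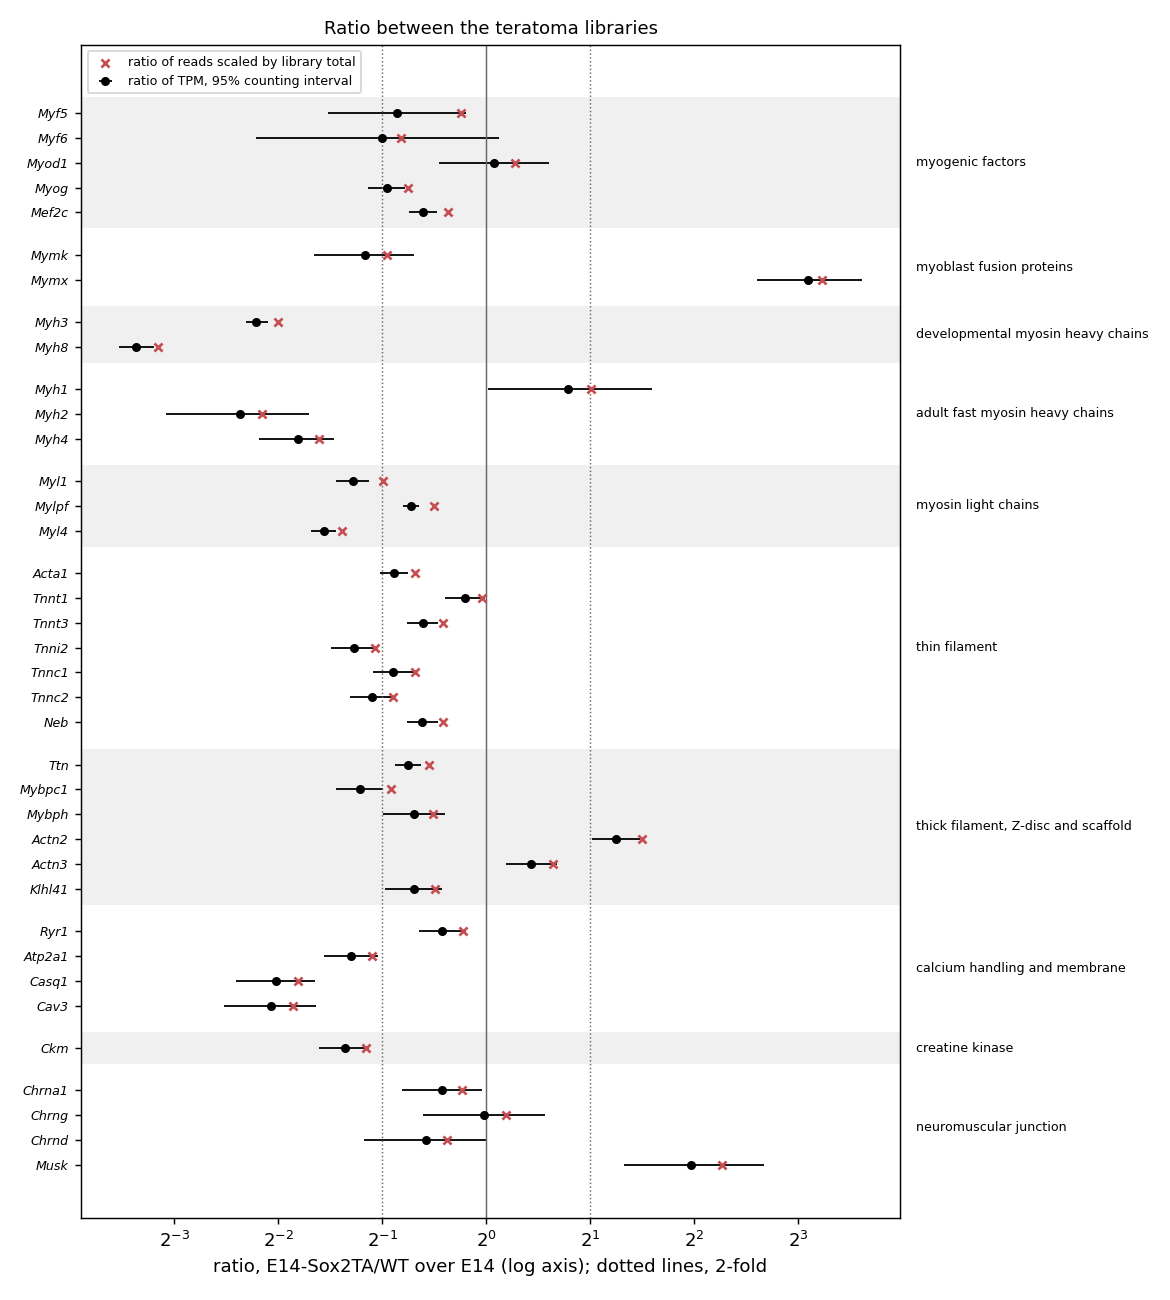
Ratio of E14-Sox2TA/WT over E14 for each of the 37 muscle genes on a log axis, with the ratio of TPM and its 95% counting interval (points and lines) and the ratio of reads scaled by library total (crosses), and dotted lines at 2-fold. Myh8 lies furthest to the left at 10.3-fold lower, and Mymx furthest to the right at 8.53-fold higher.

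Sorted into developing and adult markers, the developing markers were mostly lower and the adult ones went both ways. Of 9 markers of developing muscle (Myh3, Myh8, Myl4, Chrng, Mymk, Mymx, Myog, Actc1 and Tnnt2), 8 were lower and Mymx was higher, and the list summed to 265 and 105 TPM. The lower markers were 88.9% of the genes in the list, where 52.5% of all genes with a TPM of at least 1 were lower. Chrng and Tnnt2, counted as lower, had intervals that included 1, as did Ampd1, counted as higher among the adult markers. Apart from Actc1 and Tnnt2, the developing markers are among the 37 genes already described. Of 10 markers of adult fibres, 4 were lower and 6 higher, and they summed to 21.7 and 13.8 TPM. Ckm made up most of that sum in E14. Pvalb, the parvalbumin of fast fibres, had 16 and 45 reads, and Mylk2, the skeletal myosin light chain kinase, 4 and 16. Apart from Ckm and Actn3, the adult markers were under 2 TPM in both libraries. Of the 4 adult markers that reached a TPM of 1, 2 were lower and 2 higher, or 50% lower beside the same 52.5% of all genes. The adult markers Myh1, Myh2, Myh4, Actn3 and Ckm are also among the 37 genes.

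Further lists of the same pathway, which leave out the 37, hold genes of progenitors, sarcomere, excitation-contraction coupling and junction. Of 20 genes of myogenic progenitors, all with a TPM of at least 1, 7 were lower and 13 higher, with a median log2 ratio of 0.56. Among the 8 of them at 10 TPM or more, 3 were higher DEGs (37.5%, beside 10.8% of all genes) and 1 was a lower DEG (12.5%, beside 18.7%). Pax3, listed here as a factor of the somite and migrating precursors, had 475 and 817 reads, 1.55-fold higher (1.38 to 1.74). A bulk library does not show which cells made these Pax3 reads. Pax7, which marks satellite cells and also neural tissue, had 167 and 56 reads, 3.36-fold lower (2.47 to 4.63). Meox1 and Tcf15, factors of the somite, had 2.89 and 15.4 TPM and 2.06 and 11.5 TPM, 5.32-fold and 5.58-fold higher. Dll1, a Notch ligand of somite and neural precursors, had 34.0 and 9.51 TPM, 3.57-fold lower.

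Of 36 other sarcomere genes with a TPM of at least 1, 22 were lower and 14 higher, with a median log2 ratio of -0.16. Of the 11 that reached a TPM of 10, 2 were lower DEGs, or 18.2% beside 18.7% of all genes. They were Actc1, 3.0-fold lower (2.81 to 3.21), and Myl6b, an alkali light chain of slow and nonmuscle myosin, at 26.6 and 10.3 TPM. The tropomyosins Tpm1 and Tpm3, which nonmuscle cells also make, were the highest, at 218 and 296 TPM and 224 and 269 TPM. Myh7 had 3.14 and 1.64 TPM, 1.92-fold lower (1.65 to 2.23), and Tnni1 18.0 and 10.7 TPM, 1.68-fold lower (1.46 to 1.95). Of 20 other genes of excitation-contraction coupling with a TPM of at least 1, 14 were lower and 6 higher, with a median of -0.34. Of the 8 that reached a TPM of 10, 3 were lower DEGs (37.5%, beside 18.7% of all genes) and none was a higher DEG. They were the channel subunit Cacnb1, at 34.2 and 7.03 TPM, sarcolipin, Sln, at 12.3 and 3.41 TPM, and Tmem38a, at 29.8 and 12.5 TPM. Of 9 other junction genes with a TPM of at least 1, 4 were lower and 5 higher. Ache, which splits acetylcholine in muscle and neurons, had 16.0 and 4.32 TPM, Agrn, agrin, had 147 and 64.9 TPM, and Etv5, a factor widely expressed outside muscle, had 19.5 and 72.7 TPM.

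Several muscle genes are also expressed in heart or other cells, so markers of those cells are given beside them. Of 14 heart markers, 7 were lower and 7 higher, and the list summed to 28.5 and 33.5 TPM. Myl2, Nppb and Mybpc3 had 0 reads in E14, and Nkx2-5 had 22 and 12 reads. Myh6 had 172 and 406 reads and Myl7 had 11 and 98, both higher in E14-Sox2TA/WT. Tnni3 and Tnnt2, the highest of the list by TPM, had 13.3 and 11.3 TPM and 9.67 and 8.17 TPM. Both were 1.18-fold lower on TPM, and on reads scaled by library total their intervals included 1. Without the 7 muscle genes most shared with the heart, Mef2c, Tnnc1, Actn2, Ttn, Myl4, Cav3 and Acta1, the median log2 ratio of the muscle genes was -0.81.

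Of 10 smooth muscle markers, 3 were lower and 7 higher, with sums of 92.1 and 146 TPM, and Tagln had 15.0 and 63.2 TPM. The 7 adipocyte markers were all higher, summing to 27.6 and 88.7 TPM, and 3 of them had 0 reads in E14. Of 10 pluripotency markers, a list chosen after the data were seen, all were higher DEGs, summing to 79.6 and 1950 TPM. Marker levels of other cell types therefore differed between the libraries as well, and the part of that difference in the values of the muscle genes was not tested.

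**Figure D4:**
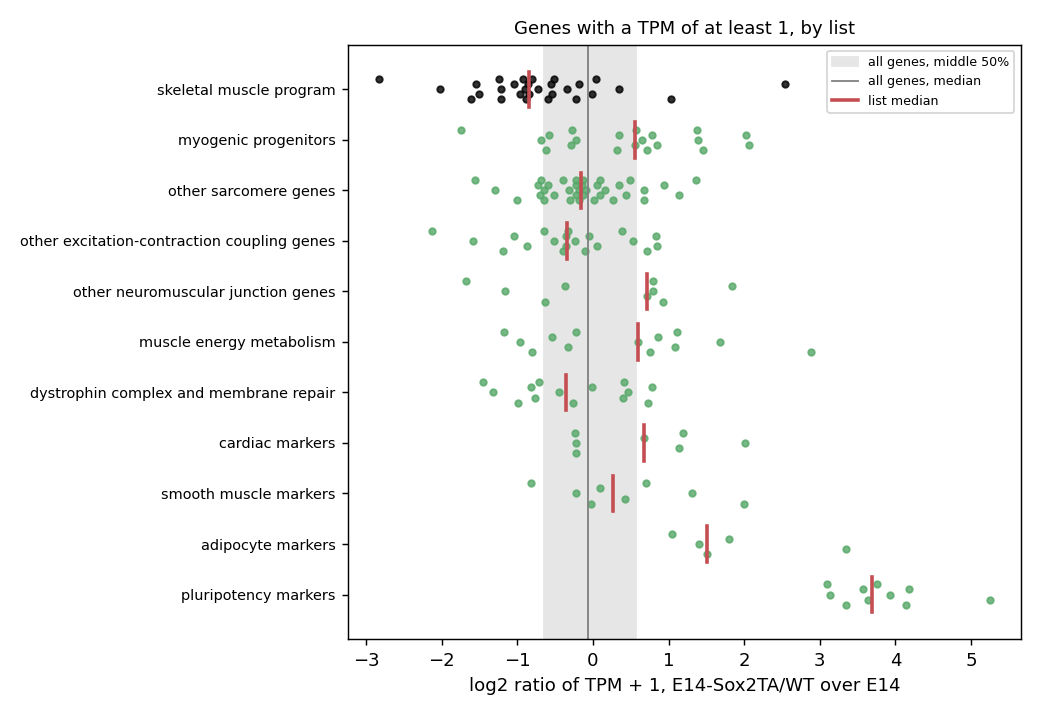
Log2 ratio of E14-Sox2TA/WT over E14, with 1 added to each TPM, for genes that reached a TPM of 1 in either library, by list, with the list median as a red bar and the middle 50% of all genes in grey. The skeletal muscle program has a median of -0.85 and the myogenic progenitors one of 0.56, beside -0.06 for all genes.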

How the data were processed

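The authors deposited, for 1 E14 and 1 E14-Sox2TA/WT teratoma library, read counts per gene without normalization, FPKM and TPM for 45777 genes on mm10. Per the labels, submitters' processing notes list bcl2fastq 2.20.0, Trimmomatic, HISAT2 2.1.0 and StringTie 2.1.3b, with builds mm10 and hg19. The strand setting of counting is not given in the sources used here. Counts were 50529171 and 49030281.

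The 37 genes were taken by symbol. They and the other lists were chosen with earlier results of these data known. Genes named were every member and, in each other list, the 3 of highest TPM and the 2 of largest absolute log2 ratio among those reaching a TPM of 10, with Sox2, Chrne, Myh7, Pax3, Pax7, Actc1, Tnni1 and marker genes. Some genes that this rule names are not reported here. Pluripotency markers were added after the data were seen.

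With 1 library per group, no test was run. Ratios of TPM were computed with 95% Clopper-Pearson intervals of the counts, which cover counting error only, and shares of reads with exact binomial intervals. For the fold of Chrne alone, the count of 0 was set to 3 reads, and in intervals, shares and medians a count of 0 was kept. Medians used a pseudocount of 1 and genes that reached a TPM of 1 in either library. The order-statistic interval of a median treats the genes as independent and does not cover differences between teratomas. Alternatives were FPKM, counts scaled by library total, by TMM factors from edgeR 4.0.16 or by median-of-ratios size factors, other pseudocounts, filters and fold thresholds, and centring by length class. Shared stretches of 50 nt and exon overlaps came from GENCODE transcripts of GRCm38, and promoters from RefSeq GRCm38.p6. Computation was tested on simulated data. R 4.3.3, Python 3.11.15, scipy 1.17.1, pandas 2.3.3, numpy 2.4.6 and matplotlib 3.10.9 were used.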

Additional observations from a re-analysis of the deposited data

How the results depend on the processing

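No paired analysis was possible because each group holds 1 library, and no library could be left out. The members' count of 7 lower DEGs was 6 by FPKM, 5 by library total and 7 by TMM or median-of-ratios factors. It was 11 of 14 after centring on genes of similar length (78.6%, beside 14.8% of all genes under the same rule), 13 of 29 with a TPM of at least 1 (44.8%, beside 18.9%), 15 of 37 with no filter (40.5%, beside 20.6%), 12 of 14 with a fold above 1.5 (85.7%, beside 32.3%) and 2 of 14 with a fold above 3 (14.3%, beside 8.77%). The 1 higher DEG became 2 with a TPM of at least 1 (6.90%, beside 19.3%) and 3 with no filter (8.11%, beside 31.4%). The median log2 ratio of -0.85 was -0.49 with a pseudocount of 5, and between -0.97 and -0.51 under the other alternatives. With Myh7 added, the developmental share of heavy chain reads was 88.4% in E14 and 73.3% in E14-Sox2TA/WT, and with Myh13 added instead, a choice made after seeing the data, 93.9% and 71.4%. None of these results changed direction. Looser filters and lower folds count more genes by construction, and the cause of the differences with gene length and pseudocount was not tested. For single genes, recomputed only by FPKM, the 3 scalings of reads and, for 29 genes, centring by length, 132 of 177 log2 ratios lay within the counting interval of the TPM ratio and 45 outside it. Depth limits Myf5, Myf6, Myod1, Myh1, Chrng and Chrnd, whose reads are few in both libraries.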

Other observations

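Genes of muscle energy metabolism were not mostly lower. Of 13 with a TPM of at least 1, 6 were lower and 7 higher in E14-Sox2TA/WT, and the list summed to 80.8 and 120 TPM. Of the 4 that reached a TPM of 10, 3 were higher DEGs (75%, beside 10.8% of all genes): Fbp2, the muscle fructose-bisphosphatase, had 48 and 625 reads, or 1.5 and 17.6 TPM, 11.7-fold higher (8.71 to 16.0). Cox7a1, the heart and muscle form of a cytochrome oxidase subunit, had 7.62 and 26.7 TPM, 3.50-fold higher (2.67 to 4.64). Eno3, the muscle enolase, had 14 and 31.4 TPM, 2.24-fold higher (2.07 to 2.43). On reads scaled by library total, Eno3 was 1.67-fold higher (1.54 to 1.80), within 2-fold and so not a DEG on that scale. Ppp1r3c, a glycogen-targeting subunit of protein phosphatase, had 22.3 and 12.3 TPM.

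Genes of the dystrophin complex and membrane repair had 9 lower and 5 higher among the 14 with a TPM of at least 1, or 64.3% lower beside 52.5% of all genes, with a median log2 ratio of -0.36 and sums of 260 and 157 TPM. Of the 8 that reached a TPM of 10, 3 were lower DEGs (37.5%, beside 18.7% of all genes). Dag1, dystroglycan, had 93.9 and 46.7 TPM, 2.01-fold lower (1.95 to 2.07). On reads scaled by library total, Dag1 was 1.76-fold lower (1.71 to 1.81), within 2-fold. Dtna, a dystrobrevin, had 25.8 and 9.78 TPM, 2.64-fold lower (2.49 to 2.81). These genes are expressed in many tissues beside muscle.

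Myh13, the heavy chain of extraocular muscle, which lies in the same cluster as Myh3 and Myh8 and was chosen after its values were seen, had 26 and 324 reads, or 0.181 and 2.04 TPM, 11.2-fold higher (7.54 to 17.5).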
